A study of Homo sapiens with 18 samples.

Results

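The enzymes that turn lanosterol into cholesterol were followed across all treatments in human myeloma cells, through 8 genes of the 57905 in each count file. They were taken by Ensembl identifier and are given in pathway order: CYP51A1, TM7SF2, MSMO1, NSDHL, HSD17B7, EBP, SC5D and DHCR7. All 8 had enough reads to be tested in every comparison. Each gene is protein-coding in GENCODE, whose exons, untranslated ends included, give the exon lengths used below. The annotation on which the reads were counted is not given. On GRCh37, CYP51A1 (ENSG00000001630) lies at chr7:91714301-91764117 on the minus strand and MSMO1 (ENSG00000052802) at chr4:166248819-166264316 on the plus strand. NSDHL (ENSG00000147383, chrX:151999511-152038273) and EBP (ENSG00000147155, chrX:48380187-48387104) are both on the X chromosome, plus strand, and HSD17B7 (ENSG00000132196) is at chr1:162760492-162782613, plus strand. Chromosome 11 holds TM7SF2 (ENSG00000149809, chr11:64879317-64883856, plus strand), SC5D (ENSG00000109929, chr11:121163390-121184119, plus strand) and DHCR7 (ENSG00000172893, chr11:71139239-71163914, minus strand).

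Poly(A) RNA was sequenced from KMS12-BM and JJN3, each an established line grown from the plasma cell tumour of a patient with multiple myeloma, in 18 libraries. There were 3 libraries in each of 6 groups: each line untreated (DMSO), with no duration given, or treated for 24 h with amiloride or TG003. KMS12-BM received 0.1 mM amiloride and JJN3 received 0.4 mM, while the TG003 dose was 0.4 mM for either line. The medium held 20% serum for KMS12-BM and 10% for JJN3, so a difference between the lines cannot be told apart from that of the serum, which carries cholesterol. Amiloride is a potassium-sparing diuretic that blocks epithelial sodium channels, and TG003 inhibits the CLK kinases that phosphorylate splicing factors. No gene was edited in any group. Nothing in the labels ties the replicates to separate cultures, so p-values measure only the spread between these samples, which may be technical.

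Cholesterol is built from acetyl units through mevalonate and squalene to lanosterol, the sterol with the ring skeleton closed. The 8 enzymes then trim methyl groups from the rings and move or reduce double bonds in the membrane of the endoplasmic reticulum. When sterol in that membrane is low, SCAP escorts the transcription factor SREBP2 to the Golgi, where it is cut free and switches on most genes of this pathway. When sterol is high, INSIG proteins hold SCAP back, and surplus sterol activates the liver X receptors, which switch on cholesterol export.

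The sequences upstream of the start sites are shown because the genes share a regulatory pathway. They come from RefSeq on GRCh38.p14, where all 8 genes matched, with 10 start windows in all since SC5D and DHCR7 have more than 1 start. The 150 bases directly upstream of the start are printed 5′ to 3′ on the gene's strand for 4 genes, and capitals mark CCAAT or its reverse complement ATTGG, the box bound by NF-Y. The genes are DHCR7 at chr11:71448394-71448543 on the minus strand, EBP at chrX:48521658-48521807 and MSMO1 at chr4:165327519-165327668, both on the plus strand, and CYP51A1 at chr7:92134478-92134627 on the minus strand.
DHCR7: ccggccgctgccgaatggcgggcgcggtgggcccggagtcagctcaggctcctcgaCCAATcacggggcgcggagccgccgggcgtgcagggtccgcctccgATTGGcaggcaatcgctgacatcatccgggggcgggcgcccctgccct
EBP: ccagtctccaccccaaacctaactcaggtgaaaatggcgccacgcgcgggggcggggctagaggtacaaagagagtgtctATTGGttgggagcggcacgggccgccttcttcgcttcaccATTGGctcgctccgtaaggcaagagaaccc
MSMO1: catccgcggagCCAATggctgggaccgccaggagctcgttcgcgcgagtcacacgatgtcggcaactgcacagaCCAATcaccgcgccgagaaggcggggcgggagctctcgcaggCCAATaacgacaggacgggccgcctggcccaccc
CYP51A1: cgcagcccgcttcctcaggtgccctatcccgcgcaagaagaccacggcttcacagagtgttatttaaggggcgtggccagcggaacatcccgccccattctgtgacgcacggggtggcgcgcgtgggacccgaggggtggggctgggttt
In the 250 bases upstream, searched on both strands, 7 of the 8 genes held CCAAT in at least 1 start window and 4 of the 8 held it more than once. Of 35116 such windows in the RefSeq table, 32% held it and 9.53% held it at least 2 times. CYP51A1 was the gene with no match. The other DHCR7 start window, which is not printed, held no CCAAT either. GGGCGG, a GC box, was present in 7 of the 8 genes and in 42.6% of all windows. TCACNCCAC, a form of the sterol regulatory element, was in none of the 10 windows and in 0.883% of all windows. CACGTG, an E-box, was found for SC5D alone and in 6.34% of all windows. These matches describe the letters in the windows, and no binding was measured.

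The libraries held between 23707695 and 50570234 reads counted in genes. Most plasma cell markers were present in both lines. Their sum over 9 genes was 2103, 3008 and 940 CPM under DMSO, amiloride and TG003 in KMS12-BM. In JJN3 it was 4605, 4596 and 2337 CPM, of which JCHAIN held 2567, 2915 and 1227 CPM. Under DMSO, JCHAIN was at 1.64 CPM in KMS12-BM, and SLAMF7 at 0.667 CPM there and 1.99 CPM in JJN3. The gene SDC1 for syndecan stood at 13.6 CPM (gene counts scaled to the same library size) in KMS12-BM and 162 CPM in JJN3 under DMSO, with CCND1 at 951 CPM in KMS12-BM and MAF at 876 CPM in JJN3, the genes these lines are known to overexpress. The markers did not move as 1 in KMS12-BM: with amiloride SDC1 was at 2.58 CPM and MZB1 at 81.7 CPM against 323 CPM under DMSO, while IRF4 was at 2094 against 1160 CPM and XBP1 at 504 against 298 CPM. The part of these marker levels in the results below was not tested. Summed over each list and group, T and NK cell markers reached at most 2.23 CPM, myeloid markers 1.41 CPM, stromal markers 1.14 CPM and hepatocyte markers 0.146 CPM. The stromal sum covers COL1A1, COL1A2 and DCN. The endothelial marker PECAM1 was not matched by symbol, so no endothelial marker was measured. Under DMSO, the B cell gene PAX5 was at 51.9 CPM in KMS12-BM and the globin gene HBB at 59.9 CPM in JJN3. In bulk RNA of a culture, fewer cells of a type and less RNA per cell cannot be told apart. All 6 TG003 libraries stood apart from the other 12: processed pseudogenes took 0.0734% to 0.0974% of their reads against 4.22% to 5.28%, and 7.79% to 9.12% of their records were not uniquely placed against 13.3% to 17.4%. This difference coincides with the TG003 groups, so the drug cannot be told apart from any separate handling of these 6 libraries.

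CYP51A1 is the gene that this difference touches. Its processed pseudogenes CYP51A1P1 and CYP51A1P2 match about 1510 of the 3155 bases of its transcript at 96.6% and 97.0% identity. Without TG003 (12 libraries), 70.4% to 81.8% of the reads on the gene and its copies were counted on the copies (104 to 388 reads on the gene, 286 to 1563 on the copies). With TG003 (6 libraries) the share was 1.06% to 3.89% (92 to 373 reads on the gene, 1 to 15 on the copies). The ranges of the gene's own reads overlap between the library sets while those of the copies do not. HSD17B7, whose copy HSD17B7P2 matches 33.2% of its transcript, had a higher share of reads on copies with TG003 in each line. In KMS12-BM the share was 15.2% to 22.6% without TG003 and 23.6% to 25.5% with it. In JJN3 it was 5.55% to 9.35% without TG003 and 9.93% to 12.8% with it. No pseudogene match was found for the other 6 genes. What the difference of the TG003 libraries does to their counts was not tested beyond leaving processed pseudogenes out. In that run SC5D passed for TG003 against DMSO in KMS12-BM (-0.27, adjusted p = 0.0478). CYP51A1 also shares 108 bp of exon with AKAP9 and 138 bp with CYP51A1-AS1 on the opposite strand, and the strand setting of the counting is unknown.

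**Figure D1:**
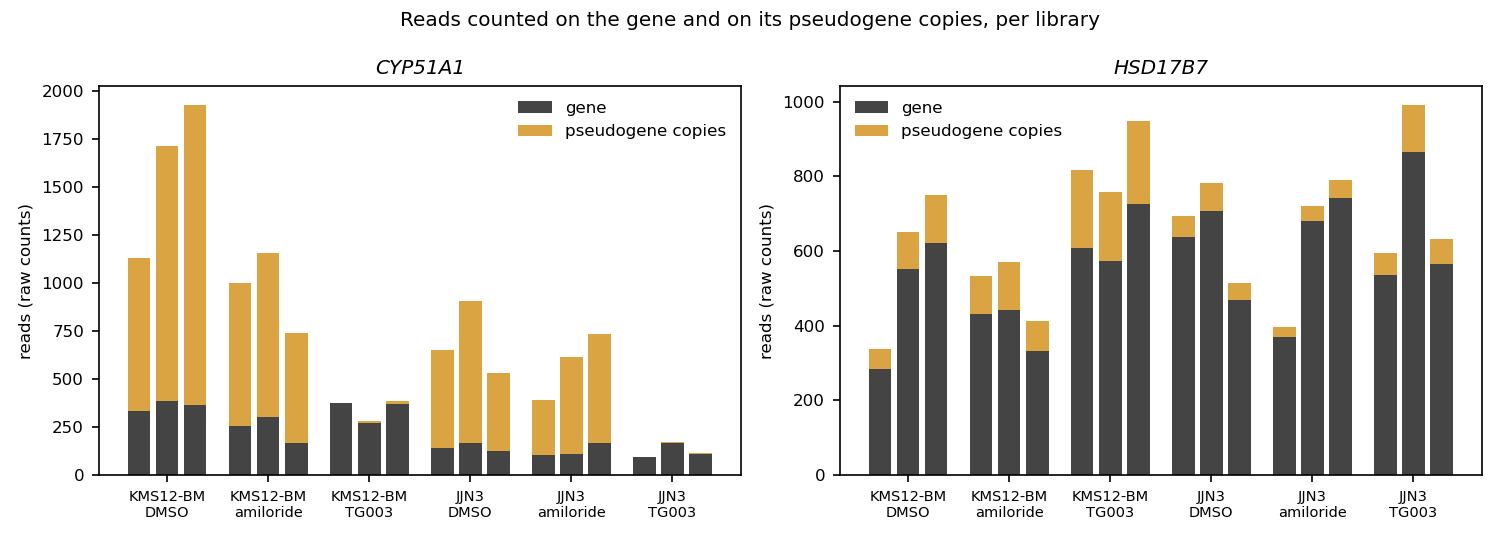
Raw reads per library (vertical axis) counted on CYP51A1 and on HSD17B7 (dark) and on their pseudogene copies (light), with 3 bars per group. Copies hold 70.4% to 81.8% of the CYP51A1 reads in the 12 libraries without TG003, and 1.06% to 3.89% in the 6 with it.

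Under DMSO, the lines used the same 8 enzymes at different levels. TM7SF2, which reduces a ring double bond straight after the first demethylation, was 9.83-fold higher in KMS12-BM, whereas MSMO1, the oxidase that starts removal of the next methyl groups, was 3.51-fold lower. DHCR7, the last reductase of the branch, and HSD17B7, the ketone reductase, were also lower in KMS12-BM. All 8 genes differed, 5 higher and 3 lower in KMS12-BM, where 36.8% of 17772 genes tested were higher and 39.3% lower at an edgeR adjusted p under 0.05, the threshold used throughout.

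TM7SF2 stood at 109, 103 and 109 CPM in the KMS12-BM libraries and at 10.5, 11.6 and 10.4 CPM in those of JJN3. The ranges were far apart, with a log2 fold change of 3.30 ± 0.130 (SE, adjusted p = 3.01e-15). MSMO1 stood at 27.1, 47.1 and 42.7 CPM in KMS12-BM and 124, 144 and 143 CPM in JJN3, with replicate 1 the lowest library of each line. Its log2 fold change was -1.81 ± 0.151 (adjusted p = 2.13e-09). DHCR7 gave -0.82 ± 0.101 and HSD17B7 -0.80 ± 0.115 on the log2 scale. Higher in KMS12-BM were EBP by 0.92 ± 0.0946, CYP51A1 by 0.90 ± 0.157, NSDHL by 0.69 ± 0.113 and SC5D by 0.41 ± 0.0934, so that SC5D differed least. For none of the 8 genes did the CPM ranges of the lines overlap, but the share of all genes with ranges apart was not counted. Summed over the 8 genes, the lines differed under DMSO by less than the spread between the KMS12-BM libraries, at 545 ± 41.8 CPM (SD, n = 3) in KMS12-BM and 552 ± 16.2 CPM in JJN3.

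Between genes, levels were compared as CPM per kilobase of GENCODE exon, which may differ from the exons that were counted. In KMS12-BM under DMSO, EBP, the isomerase that shifts a ring double bond, was the highest at 83.0 CPM per kilobase, ahead of TM7SF2 at 31.4 and DHCR7 at 18.6. NSDHL at 14.96 and MSMO1 at 13.7 overlapped, SC5D followed at 7.31, and HSD17B7 at 2.49 overlapped CYP51A1 at 2.26. In JJN3, MSMO1 at 48.1 CPM per kilobase overlapped EBP at 43.8, and DHCR7 came next at 32.9. Below them were NSDHL at 9.30, SC5D at 5.52, HSD17B7 at 4.36, TM7SF2 at 3.19 and CYP51A1 at 1.21, each apart from its neighbours. The low place of CYP51A1, the demethylase that opens the pathway, is of the reads counted on the gene alone, of which its copies hold the larger number.

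**Figure D2:**
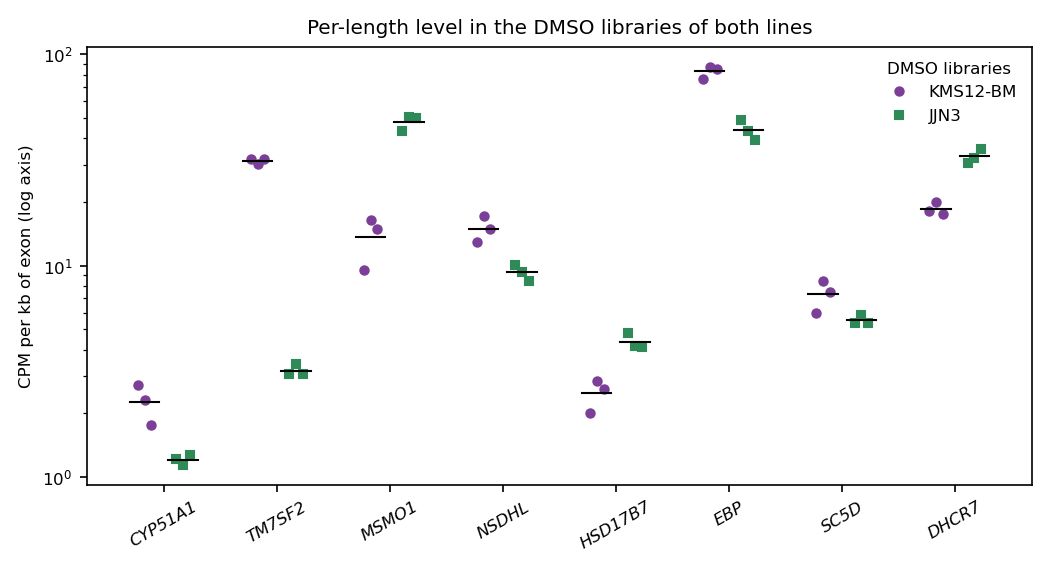
Level under DMSO in CPM per kilobase of exon (vertical log axis) of each gene in pathway order, with 1 point per library (circles KMS12-BM, squares JJN3) and the mean as a line. TM7SF2 is 31.4 in KMS12-BM and 3.19 in JJN3, while MSMO1 is 13.7 and 48.1.

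Amiloride at 0.1 mM lowered nearly the whole branch in KMS12-BM. DHCR7 fell the most, by 4.80-fold, and TM7SF2, MSMO1 and EBP fell by 2.43- to 2.58-fold. CYP51A1, NSDHL (the decarboxylating dehydrogenase) and SC5D (the desaturase ahead of DHCR7) fell by 1.33- to 1.49-fold, and HSD17B7 did not pass the test. The count was 7 of 8 lower and 0 higher, where 35.2% of 15765 genes tested were lower and 33.5% higher. The median log2 fold change was -0.93 over the 8 genes and -0.02 over all genes tested.

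DHCR7 stood at 124, 138 and 121 CPM under DMSO and at 32.3, 23.6 and 24.0 CPM under amiloride. Every amiloride library was below every DMSO library, and the log2 fold change was -2.26 ± 0.125 (adjusted p = 7.42e-08). EBP fell from 135, 154 and 151 CPM to 61.9, 57.2 and 61.8 CPM, a log2 fold change of -1.28 ± 0.0815 (adjusted p = 1.63e-07). The amiloride libraries of EBP were close together and well below the lowest DMSO library. TM7SF2 fell from 109, 103 and 109 CPM to 49.5, 37.4 and 37.4 CPM, by -1.37 ± 0.108 (adjusted p = 7.05e-07). MSMO1 had DMSO values of 27.1, 47.1 and 42.7 CPM against 13.3, 15.6 and 16.4 CPM, a log2 fold change of -1.37 ± 0.183 (adjusted p = 5.46e-05). Its DMSO libraries spread widely, yet the lowest of them stayed above all amiloride libraries.

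Among the smaller falls, NSDHL went from 25.8, 34.2 and 29.6 CPM to 17.9, 21.8 and 22.2 CPM (-0.54 ± 0.116, adjusted p = 0.00149). SC5D went from 59.97, 85.0 and 75.5 CPM to 53.8, 56.4 and 55.5 CPM (-0.41 ± 0.107, adjusted p = 0.00483). CYP51A1 went from 11.3, 9.63 and 7.37 CPM to 6.49, 6.89 and 5.55 CPM (-0.57 ± 0.158, adjusted p = 0.00694). For these 3 genes the groups did not overlap but lay close. HSD17B7 stood at 9.64, 13.7 and 12.5 CPM against 10.995, 10.0 and 11.2 CPM, with the amiloride values inside the DMSO range (-0.16 ± 0.128, adjusted p = 0.295). With the copies added, the fall of CYP51A1 was -0.64 (adjusted p = 2.8e-05). Removing the GC trend of each library gave larger falls for SC5D (-0.81) and CYP51A1 (-0.90), cut that of TM7SF2 to -0.60 and made HSD17B7 pass (-0.46, adjusted p = 0.00321), as did leaving out KMS12-BM DMSO replicate 1 (-0.28, adjusted p = 0.044). Over the 16 alternatives, the fall of DHCR7 ranged from -2.425 to -1.82 and that of EBP from -1.34 to -0.999, and both kept their calls.

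**Figure D3:**
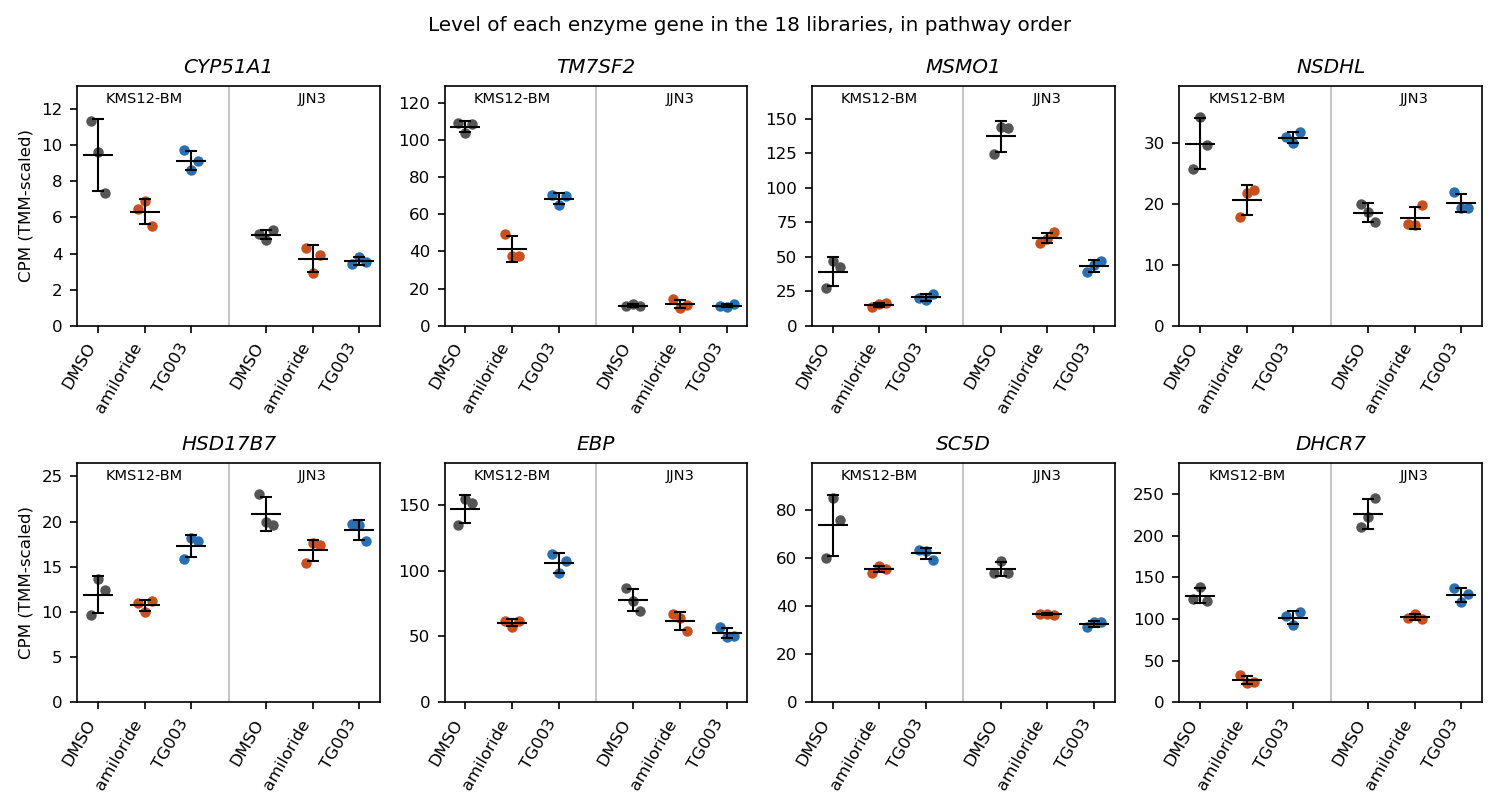
Level in CPM (vertical axes) of each enzyme gene in the 18 libraries, with 1 point per library and the mean with its SD (n = 3) for each group of both lines. DHCR7 in KMS12-BM lies at 121 to 138 under DMSO and at 23.6 to 32.3 under amiloride.

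In JJN3, amiloride at 0.4 mM lowered DHCR7, MSMO1 and SC5D, while TM7SF2 and NSDHL did not pass the test. The largest falls were 2.22-fold for DHCR7 and 2.17-fold for MSMO1. The count was 6 of 8 lower and 0 higher, where 23.9% of 15704 genes tested were lower and 19.7% higher. The median log2 fold change was -0.40, against -0.03 over all genes tested.

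DHCR7 stood at 211, 223 and 246 CPM under DMSO and 102, 106 and 99.9 CPM under amiloride, a log2 fold change of -1.15 ± 0.0777 (adjusted p = 8.27e-07). MSMO1 stood at 124, 144 and 143 CPM and at 59.99, 62.9 and 67.8 CPM (-1.11 ± 0.086, adjusted p = 2.24e-06). The groups of both genes were separated by more than the spread of either group. SC5D fell from 53.8, 58.8 and 53.7 CPM to 36.8, 36.8 and 36.2 CPM (-0.61 ± 0.0684, adjusted p = 2.72e-05). EBP had DMSO values of 86.4, 76.5 and 69.5 CPM and amiloride values of 67.2, 63.7 and 54.5 CPM (-0.34 ± 0.102, adjusted p = 0.0171). Here the lowest DMSO and the highest amiloride library nearly met. HSD17B7 fell from 23.0, 20.0 and 19.6 CPM to 15.4, 17.6 and 17.4 CPM (-0.32 ± 0.0948, adjusted p = 0.016), and CYP51A1 from 5.10, 4.76 and 5.28 CPM to 4.33, 2.90 and 3.91 CPM (-0.46 ± 0.156, adjusted p = 0.0304). TM7SF2 had overlapping values of 10.5, 11.6 and 10.4 CPM against 14.2, 9.68 and 11.3 CPM (0.10 ± 0.136, adjusted p = 0.593). NSDHL overlapped as well, at 20.0, 18.7 and 16.96 CPM against 16.7, 16.5 and 19.7 CPM (-0.08 ± 0.104, adjusted p = 0.578).

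The calls of the 3 smaller falls depended on single libraries, while the direction was kept. Without JJN3 DMSO replicate 1 the count was 3, with CYP51A1 (-0.44, adjusted p = 0.0714), HSD17B7 (-0.24, 0.0766) and EBP (-0.24, 0.0757) no longer passing. The call of CYP51A1 was also lost without DMSO replicate 3 (-0.42, adjusted p = 0.0827) or amiloride replicate 2 (-0.29, 0.123), that of HSD17B7 without amiloride replicate 1 (-0.27, 0.0624) and that of EBP without amiloride replicate 3 (-0.25, 0.0684). With only the compared groups in the fit, CYP51A1 also missed the threshold (-0.43, adjusted p = 0.0668). The fall of CYP51A1 with its copies added was -0.54 (adjusted p = 0.000384).

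TG003 at 0.4 mM in KMS12-BM lowered MSMO1, TM7SF2, EBP and DHCR7 and raised HSD17B7. MSMO1 fell 1.90-fold and TM7SF2 1.56-fold, while HSD17B7 rose 1.45-fold. The count was 4 lower and 1 higher of 8, where 31.7% of 15765 genes tested were lower and 26.9% higher. The median log2 fold change was -0.29, against -0.03 over all genes tested. This comparison uses the same DMSO libraries as that of amiloride in KMS12-BM.

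MSMO1 stood at 27.1, 47.1 and 42.7 CPM under DMSO and at 19.9, 18.4 and 23.1 CPM under TG003 (-0.92 ± 0.180, adjusted p = 0.00123). TM7SF2 went from 109, 103 and 109 CPM to 70.2, 64.8 and 69.7 CPM (-0.64 ± 0.106, adjusted p = 0.000315), and EBP from 135, 154 and 151 CPM to 113, 97.8 and 107 CPM (-0.46 ± 0.0801, adjusted p = 0.000445). In all 3 genes the groups lay apart. HSD17B7 moved the other way, from 9.64, 13.7 and 12.5 CPM to 15.9, 18.2 and 17.8 CPM (0.54 ± 0.126, adjusted p = 0.00334). Reads on its copies were 93.7 per library on average under DMSO and 206 under TG003, and with copies added the rise was 0.69 (adjusted p = 0.000469). The part of the copies in the rise was not tested otherwise. DHCR7 had 124, 138 and 121 CPM against 103, 92.8 and 109 CPM (-0.33 ± 0.119, adjusted p = 0.0331). That call was lost without DMSO replicate 1 (adjusted p = 0.0503) or 2 (0.112), or TG003 replicate 1 (0.0664) or 2 (0.119).

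SC5D, at 59.97, 85.0 and 75.5 CPM against 63.2, 62.9 and 59.3 CPM, missed the threshold (-0.25 ± 0.107, adjusted p = 0.0686), and its DMSO range held most of the TG003 values. Without DMSO replicate 1, its low DMSO library, it passed (-0.37, adjusted p = 0.00298), and it passed in 7 of the 16 alternatives. NSDHL overlapped, at 25.8, 34.2 and 29.6 CPM against 30.9, 29.97 and 31.7 CPM (0.05 ± 0.115, adjusted p = 0.715). CYP51A1 stood at 11.3, 9.63 and 7.37 CPM against 9.71, 8.61 and 9.13 CPM, with the TG003 values inside the DMSO range (-0.03 ± 0.156, adjusted p = 0.868). With its copies added the log2 fold change was -2.08 (adjusted p = 1.89e-09). Reads on the gene averaged 363 per library under DMSO and 338 under TG003, and reads on the copies 1229 and 9.33.

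In JJN3, TG003 at the same 0.4 mM lowered MSMO1 3.10-fold, DHCR7 1.72-fold, SC5D 1.67-fold, EBP 1.45-fold and CYP51A1 1.37-fold. TM7SF2, NSDHL and HSD17B7 did not pass. The count was 5 lower and 0 higher of 8, where 32.1% of 15704 genes tested were lower and 26.2% higher. The median log2 fold change was -0.50, against -0.04 over all genes tested. The DMSO libraries are those used for amiloride in JJN3.

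MSMO1 stood at 124, 144 and 143 CPM under DMSO and at 38.9, 44.1 and 46.9 CPM under TG003 (-1.63 ± 0.0875, adjusted p = 2.42e-09). SC5D went from 53.8, 58.8 and 53.7 CPM to 31.2, 33.2 and 33.2 CPM (-0.74 ± 0.0687, adjusted p = 9.77e-07). DHCR7 went from 211, 223 and 246 CPM to 137, 121 and 130 CPM (-0.78 ± 0.0771, adjusted p = 1.83e-06). In each of these genes every TG003 library was well below every DMSO library. EBP fell from 86.4, 76.5 and 69.5 CPM to 56.997, 49.7 and 50.6 CPM (-0.53 ± 0.102, adjusted p = 0.000596). HSD17B7 overlapped, at 23.0, 20.0 and 19.6 CPM against 19.8, 19.6 and 17.8 CPM (-0.10 ± 0.0944, adjusted p = 0.38). So did NSDHL, at 20.0, 18.7 and 16.96 CPM against 21.9, 19.3 and 19.2 CPM (0.14 ± 0.103, adjusted p = 0.249). TM7SF2, low in this line, stood at 10.5, 11.6 and 10.4 CPM against 10.8, 9.81 and 11.5 CPM (0.01 ± 0.136, adjusted p = 0.961), with the groups fully mixed.

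CYP51A1 in JJN3 went from 5.10, 4.76 and 5.28 CPM to 3.40, 3.81 and 3.53 CPM under TG003 (-0.46 ± 0.156, adjusted p = 0.0225). The call was lost without DMSO replicate 1 (adjusted p = 0.0554) or 3 (0.0627), or TG003 replicate 1 (0.0647) or 3 (0.0624). With copies added the log2 fold change was -2.67 (adjusted p = 4.01e-11). Reads on the gene averaged 145.3 per library under DMSO and 124 under TG003, and reads on the copies 551 and 2.

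**Figure D4:**
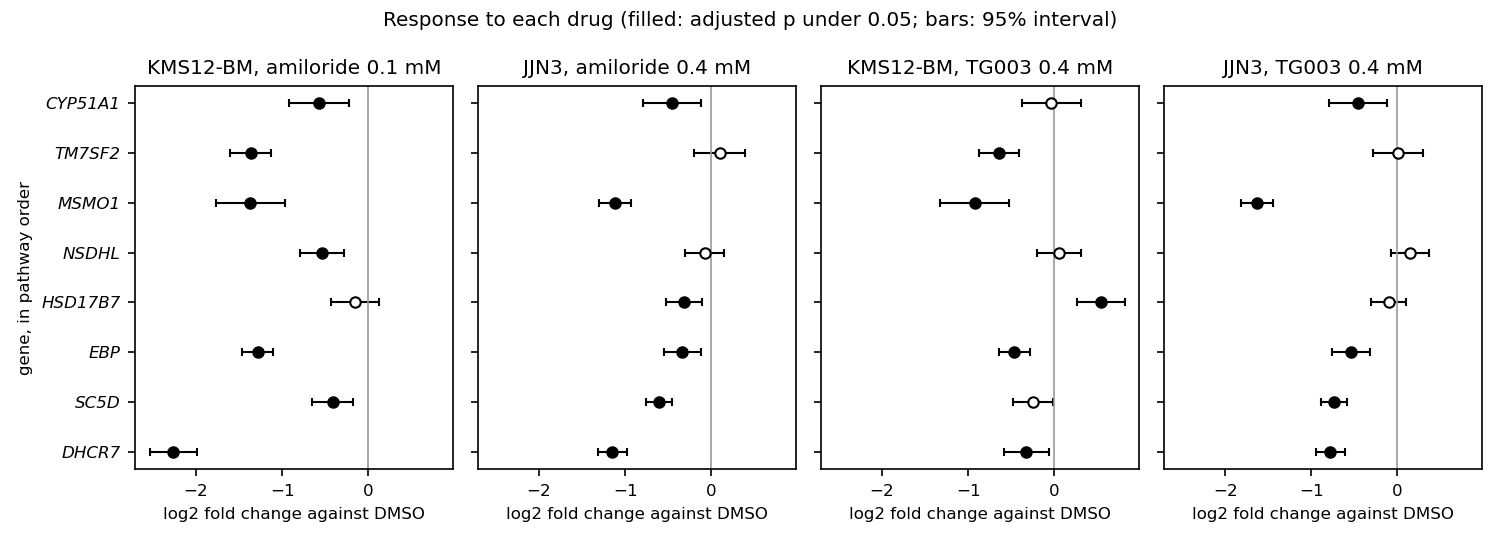
Log2 fold change against DMSO (horizontal axis) of each gene, 1 panel per line and drug with its dose, with bars for the 95% interval and filled points for an adjusted p under 0.05. DHCR7 ranges from -2.26 with amiloride in KMS12-BM to -0.33 with TG003 in the same line, and HSD17B7 with TG003 in KMS12-BM is the filled point above 0.

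The drugs met at the same dose, 0.4 mM, only in JJN3, and there 2 of the 8 genes passed the test of a difference. MSMO1 was 1.43-fold higher with amiloride than with TG003, and DHCR7 was 1.29-fold lower. The count was 1 higher and 1 lower of 8, where 33.3% of 15704 genes tested were higher with amiloride and 28.9% lower. MSMO1 stood at 59.99, 62.9 and 67.8 CPM with amiloride and at 38.9, 44.1 and 46.9 CPM with TG003 (0.52 ± 0.0865, adjusted p = 0.000171). DHCR7 stood at 102, 106 and 99.9 CPM and at 137, 121 and 130 CPM (-0.37 ± 0.0771, adjusted p = 0.000966). Neither gene's groups overlapped.

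The other 6 differences did not pass, with 95% intervals, unadjusted and on the log2 scale, of -0.34 to 0.34 for CYP51A1 and -0.20 to 0.38 for TM7SF2. NSDHL had -0.44 to 0.00148, HSD17B7 -0.42 to -0.01, EBP -0.02 to 0.42 and SC5D -0.02 to 0.28. For HSD17B7 and SC5D the ranges of the groups did not overlap, and for the other 4 they did. How many of all genes tested had ranges apart was not counted here either. Intervals of this width leave room for differences up to about the size seen for DHCR7, so they do not show that the drugs acted alike. The count was 4 once the GC trend was removed (EBP 0.24 and SC5D 0.16 gained), 4 with copies added (CYP51A1 2.13 and HSD17B7 -0.30 gained) and 4 without JJN3 amiloride replicate 3 (NSDHL -0.31 and EBP 0.28 gained). Reads on CYP51A1 itself averaged 127.7 per library with amiloride and 124 with TG003, and reads on its copies 451 and 2.

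The lines differed in how far amiloride moved the branch, as tested by the interaction of line and drug, although KMS12-BM received 0.1 mM and JJN3 0.4 mM, and line and dose cannot be told apart. TM7SF2, DHCR7, EBP and NSDHL fell further in KMS12-BM. The interaction, KMS12-BM minus JJN3 on the log2 scale, was -1.47 ± 0.173 for TM7SF2 (adjusted p = 1.09e-06), -1.12 ± 0.145 for DHCR7 (3.07e-06), -0.96 ± 0.134 for EBP (7.86e-06) and -0.47 ± 0.160 for NSDHL (0.0228). With the GC trend removed the TM7SF2 value was -0.96. Over the 21 alternatives DHCR7 ranged from -1.28 to -0.80 and EBP from -1.04 to -0.75, and both kept their calls. Thus 4 of 8 were lower and 0 higher, where 21.6% of 17772 genes tested were lower and 21.6% higher. MSMO1 (-0.26 ± 0.211, adjusted p = 0.348), CYP51A1 (-0.12 ± 0.224, 0.733), HSD17B7 (0.15 ± 0.163, 0.5) and SC5D (0.19 ± 0.132, 0.281) did not pass. NSDHL was lost without KMS12-BM DMSO replicate 2 (adjusted p = 0.0822), KMS12-BM amiloride replicate 1 (0.0596), JJN3 DMSO replicate 3 (0.0639) or JJN3 amiloride replicate 3 (0.0738). MSMO1 passed without KMS12-BM DMSO replicate 1 (-0.47, adjusted p = 0.0179) and with the GC trend removed (-0.56, 0.0123).

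For TG003, given at 0.4 mM to both lines, the interaction was positive for MSMO1 (0.73 ± 0.211, adjusted p = 0.0253), HSD17B7 (0.66 ± 0.161, 0.00866), SC5D (0.52 ± 0.133, 0.0117) and DHCR7 (0.48 ± 0.143, 0.0291). For MSMO1 and DHCR7 this means a fall in both lines that was larger in JJN3, for SC5D a fall that passed in JJN3 alone, and for HSD17B7 a rise that passed in KMS12-BM alone. TM7SF2 had -0.63 ± 0.173 (adjusted p = 0.0187), having fallen in KMS12-BM. The 4 higher and 1 lower of 8 stand beside 7.13% of 17772 genes tested that were higher and 6.8% lower. CYP51A1 (0.45 ± 0.223, adjusted p = 0.202), EBP (0.09 ± 0.133, 0.746) and NSDHL (-0.07 ± 0.159, 0.904) did not pass, and CYP51A1 with copies added did (0.62, 0.00254). The few copy reads of the TG003 libraries enter that last value.

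The calls of the TG003 interaction depended on single libraries, while the values stayed close. The count was 3 without JJN3 DMSO replicate 3, KMS12-BM TG003 replicate 3 or JJN3 TG003 replicate 3. DHCR7 lost its call without any 1 of 7 libraries, with values of 0.41 to 0.48 and adjusted p up to 0.0854: KMS12-BM DMSO replicates 1 and 3, KMS12-BM TG003 replicates 1 and 3, JJN3 DMSO replicate 3 and JJN3 TG003 replicates 2 and 3. MSMO1 lost it without JJN3 DMSO replicate 2 (0.69, adjusted p = 0.0612) or 3 (0.70, 0.0591), JJN3 TG003 replicate 1 (0.66, 0.07) or KMS12-BM TG003 replicate 3 (0.63, 0.0753), and TM7SF2 without JJN3 TG003 replicate 3 (-0.57, 0.0543). HSD17B7 and SC5D passed in every alternative run.

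The genes around the branch were described through lists, whose counts stand beside the share of all genes tested. With amiloride that share was 35.2% lower and 33.5% higher in KMS12-BM, and 23.9% lower and 19.7% higher in JJN3. With TG003 it was 31.7% lower and 26.9% higher in KMS12-BM, and 32.1% lower and 26.2% higher in JJN3. Of the 12 genes that lead from acetyl units to lanosterol, amiloride lowered 11 and raised 1 in KMS12-BM (median log2 fold change -1.40), the exception being GGPS1, which makes a side product of the pathway. The log2 fold change was -2.61 ± 0.238 for MVD, the decarboxylase, and -2.32 ± 0.117 for LSS, which closes the ring to lanosterol. In JJN3, amiloride lowered 10 and raised 1 (median -0.72), led by HMGCS1 at -1.40 ± 0.0935. TG003 lowered 6 and raised 1 of the 12 in KMS12-BM (median -0.29), and lowered 9 and raised 1 in JJN3 (median -0.54), where HMGCS1 stood at -2.12 ± 0.0958. In the DMSO libraries 10 of the 12 were lower in KMS12-BM than in JJN3 and 1 was higher, beside 39.3% and 36.8% of all genes tested.

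The partner list holds 10 genes that work beside the 8 enzymes, such as electron donors and the paralogous reductases. Amiloride lowered 7 and raised 0 in KMS12-BM (median -0.44), and lowered 4 and raised 1 in JJN3 (median -0.05). TG003 lowered 4 of 10 and raised 0 in each line (medians -0.12 and -0.14), where the share lowered is near the 31.7% and 32.1% of all genes. LBR, the lamin B receptor that carries the same reductase activity as TM7SF2, was not called with amiloride in KMS12-BM (-0.07 ± 0.0792, adjusted p = 0.482) or JJN3 (0.02 ± 0.0764, 0.818). With TG003 it fell in KMS12-BM (-0.60 ± 0.0795, adjusted p = 6e-05) and was not called in JJN3 (-0.12 ± 0.0764, 0.189). Under DMSO it was higher in KMS12-BM, like TM7SF2, with 705 ± 63.1 CPM against 170 ± 12.6 CPM in JJN3.

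Of the 11 genes of SREBP control and sterol uptake, 10 were tested in KMS12-BM and 9 in JJN3. Amiloride lowered 8 and raised 2 in KMS12-BM (median -0.59), and lowered 7 and raised 1 in JJN3 (median -0.46). TG003 lowered 4 and raised 2 of 10 in KMS12-BM (median -0.12), near the 31.7% and 26.9% of all genes, and lowered 6 and raised 2 of 9 in JJN3 (median -0.39), beside 32.1% and 26.2%. INSIG1, which retains SCAP, fell in all 4 comparisons, with log2 fold changes of -0.68 and -2.17 with amiloride in KMS12-BM and JJN3 and of -1.24 and -2.34 with TG003. NPC1L1, the sterol importer of the gut, stood at 0.159 ± 0.0706 CPM under DMSO and 21.2 ± 4.63 CPM under amiloride in KMS12-BM. Of the 6 liver X receptor genes, amiloride raised 2 and lowered 2 of 5 tested in KMS12-BM, near the 33.5% and 35.2% of all genes, and raised 2 and lowered 1 of 6 in JJN3, beside 19.7% and 23.9%. TG003 raised 3 and lowered 1 of 5 in KMS12-BM, and raised 1 and lowered 2 of 6 in JJN3, where 26.9% and 26.2% of all genes rose. NR1H3, the gene of a liver X receptor, rose in all 4 comparisons, by 1.59 and 0.50 with amiloride and by 2.13 and 1.36 with TG003 in KMS12-BM and JJN3.

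Within the branch, genes varied in how closely they tracked each other. Across the 18 libraries, with each gene's log2 CPM centred on its line mean, EBP had a Pearson r of 0.937 with the mean of the other 7 and DHCR7 0.931. CYP51A1 (0.758), MSMO1 (0.755), SC5D (0.74), TM7SF2 (0.719) and NSDHL (0.638) followed, and HSD17B7 was the lowest at 0.413. These values are a description, since the libraries fall into 6 groups and the TG003 libraries share the make-up given above.

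Among 10807 other genes with a symbol and a mean of at least 5 CPM, the pattern most like the mean of the 8 genes was that of SLC48A1, a haem transporter (r = 0.981 over 18 libraries). ELOVL5, a fatty acid elongase (0.976), TSTD1 (0.9754), TMEM97 (0.974) and FADS2, a fatty acid desaturase (0.974), came next. FHL3 (0.970), CTBP1-DT (0.969), TREX1 (0.967) and SCD, another desaturase (0.966), followed. FADS2 stood at 307 ± 30.1, 35.5 ± 3.03 and 177 ± 19.8 CPM in KMS12-BM under DMSO, amiloride and TG003 (SD, n = 3). In JJN3 it stood at 740.5 ± 47.9, 334 ± 17.4 and 385 ± 12 CPM.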

How the data were processed

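Poly(A) RNA of 18 libraries was measured by strand-specific sequencing, per the labels' protocols. Per the submitters' processing notes, the tools were cutadapt 1.4, TopHat2 2.0.11 on hg19, HTSeq 0.6.1p1 for counting and DESeq2 1.12.4. Which annotation and which strand setting HTSeq used is not given in the sources used here. Values used, as deposited, are whole-number read counts per Ensembl gene. HTSeq records outside genes were 17.5% to 31.2% per library and stayed out of library sizes. Coordinates and exons are from GENCODE on GRCh37, which matched 55538 of 57905 identifiers (43521 with a symbol).

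Counts were tested with edgeR 4.0.16 in R 4.3.3 (filterByExpr with a minimum of 10 and a total of 15, TMM scaling, robust quasi-likelihood F tests, Benjamini-Hochberg over all genes tested). Each line was fitted alone, and the line difference and both interactions with all 18 libraries. The value after ± of a log2 fold change is an approximate SE (the absolute log2 fold change over the root of its F statistic). CPM are relative to TMM-scaled library sizes, with the SD over 3 libraries. Copies were found with BLAST 2.17.0. The reads carry no molecular identifiers and may repeat molecules, so intervals cover counting error and library spread only. Replicates of a group differed by more than sampling noise (chi-square per gene of 9.27 or more).

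The genes, the lists and the marker sets were chosen with earlier results of these data known. All 8 enzymes were named in every comparison, with LBR, INSIG1, up to 2 called genes of largest change per list, and the genes of most like pattern. Some genes that the rule names are not reported here. Comparisons of both drugs with DMSO share the DMSO libraries, so no overlap between them is given. SREBF1 is in 2 lists. Same-run libraries deviated together (all 3 correlations over 0.1) for TG003 against DMSO in JJN3 alone, where the block changed no call. The tests were tried on simulated data. Alternatives were median-of-ratios scaling, other filters, DESeq2 1.42.0, GC trend removal, a replicate block, fewer groups in the fit and each library left out. Adding copies and leaving out processed pseudogenes were chosen after seeing the data. The deposited tables of normalized values were not used.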

Additional observations from a re-analysis of the deposited data

Results flagged for a closer look

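The response to a drug differed between the lines, by the interaction term of edgeR over all 18 libraries, for the following genes (KMS12-BM minus JJN3, log2 scale). For amiloride, TM7SF2 gave -1.47 (-1.468, adjusted p = 1.09e-06), DHCR7 -1.12 (-1.121, 3.07e-06), EBP -0.96 (-0.9563, 7.86e-06) and NSDHL -0.47 (-0.465, 0.0228), where KMS12-BM received 0.1 mM and JJN3 0.4 mM. For TG003 at 0.4 mM in both lines, MSMO1 gave 0.73 (0.7316, adjusted p = 0.0253), HSD17B7 0.66 (0.661, 0.00866), SC5D 0.52 (0.5178, 0.0117), DHCR7 0.48 (0.4771, 0.0291) and TM7SF2 -0.63 (-0.6251, 0.0187).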

How the results depend on the processing

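Over 1096 values of single genes under the alternatives, 1018 kept direction and side of the threshold, 32 lost the call, 25 gained it and 21 changed sign, none of the 21 called before or after. All 8 line differences under DMSO were kept in every alternative. Apart from runs with 1 library left out, the number of the 8 genes called moved by more than 1.5 times only for amiloride against TG003 in JJN3. There 2 became 4 with the GC trend removed, and 4 with the block and the GC trend removed. With copies added the number became 4 too, where reads on the CYP51A1 copies averaged 451 with amiloride and 2 with TG003. Leaving out 1 library also moved it by more than 1.5 times for amiloride in JJN3 (6 to 3), the TG003 interaction (5 to 3) and amiloride against TG003 in JJN3 (2 to 4). With 1 library left out the counts ranged from 7 to 8 (amiloride, KMS12-BM), 3 to 6 (amiloride, JJN3), 4 to 5 (TG003, each line), 2 to 4 (amiloride against TG003, JJN3), 8 to 8 (DMSO), 3 to 5 (amiloride interaction) and 3 to 5 (TG003 interaction).

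Changes of sign with all libraries in the fit were CYP51A1 for amiloride against TG003 in JJN3 with the block (-0.01478), TM7SF2 for TG003 in JJN3 without processed pseudogenes (-0.01396), and, in the amiloride interaction, HSD17B7 (-0.08638 with the GC trend removed, -0.08733 with the block as well) and SC5D (-0.1217 in both). The cause was not tested.
With 1 library left out in turn, the log2 values of CYP51A1, TG003 against DMSO in KMS12-BM (-0.1954 to 0.1157), NSDHL, TG003 against DMSO in KMS12-BM (-0.04114 to 0.1579), CYP51A1, interaction of line and amiloride (-0.2763 to 0.02501), NSDHL, interaction of line and TG003 (-0.1643 to 0.03844), TM7SF2, amiloride against DMSO in JJN3 (-0.06003 to 0.2269), TM7SF2, TG003 against DMSO in JJN3 (-0.04502 to 0.07513), CYP51A1, amiloride against TG003 in JJN3 (-0.1135 to 0.1639) and TM7SF2, amiloride against TG003 in JJN3 (-0.0681 to 0.2189) changed sign.

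The labels give library numbers in 3 runs of 6, 1 library per group in each run. Deviations of same-run libraries correlated at -0.07 to 0.27 over 18 pairs, and 8 of the 18 were above 0.1. In 1 comparison, TG003 against DMSO in JJN3, all 3 pairs were above 0.1 (0.152, 0.156 and 0.137), and there the replicate block kept every call of the 8 genes. In the others at least 1 pair was at or below 0.1, so the runs were not taken as pairing. With the run as replicate block, 6 genes were called for TG003 in KMS12-BM (SC5D gained) and 3 for amiloride against TG003 in JJN3 (EBP gained), and the other counts of the 8 genes stayed at 7, 6, 5, 8, 4 and 5. CYP51A1 had the fewest reads of the 8 genes, 92 to 388 per library.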
